A study of Mus musculus with 12 samples.

Results

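The HoxC cluster genes were followed across all 12 RNA-Seq libraries of the study. Members were the 9 rows of the deposited expression table with the gene symbols *Hoxc4*, *Hoxc5*, *Hoxc6*, *Hoxc8*, *Hoxc9*, *Hoxc10*, *Hoxc11*, *Hoxc12* and *Hoxc13*, out of 36186 rows, and each symbol had 1 row. The libraries came from mouse forelimb zeugopods (the segment with radius and ulna) at E15.5 on a mixed 129/CD-1 background, collected by laser capture microdissection (LCM), with 3 libraries in each of 4 groups. Wild type (WT) resting, proliferative and hypertrophic chondrocytes formed 3 of them. The other group was *aadd*, homozygous for germline frameshift mutations, each made by a LoxP insertion with a small deletion, in the first exons of *Hoxa9*, *Hoxa10* and *Hoxa11* and of *Hoxd9*, *Hoxd10* and *Hoxd11*, with no HoxC gene among the mutated ones. The whole chondrocyte population of the *aadd* zeugopod was captured, with no compartment chosen, although the sample labels call these libraries resting. The labels also give the hypertrophic libraries as hyperproliferative. The labels do not say which embryo each replicate came from, so the tests measure the spread between these samples. Some perichondrial cells entered the captured tissue.

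Mammals carry 4 Hox clusters, HoxA to HoxD, each on its own chromosome, whose genes encode homeodomain transcription factors that give cells their position along the body and limb axes. Genes with the same number in different clusters are paralogs, and the genes of a cluster tend to be used in the order in which they lie on the chromosome. The HoxA and HoxD clusters have the leading role in patterning the segments of the limb. HoxC genes are best known for the trunk and its motor neurons, with the early, low-numbered members active at the level of the forelimb, *Hoxc9* to *Hoxc11* at the level of the trunk and hindlimb, and *Hoxc13* in hair and nail.

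On mouse build mm10 the cluster ran from *Hoxc13* to *Hoxc4* over chr15:102921131-103036852, a span of 116 kb that held 12 rows of the table. In this order *Hoxc13*, *Hoxc12*, *Hoxc11*, *Hoxc10*, *Hoxc9*, *Hoxc8*, *Hoxc6*, *Hoxc5* and *Hoxc4* followed one another, and the 3 other rows were the long noncoding RNA *Hotair* and the microRNA genes *Mir196a-2* and *Mir615*. The part of the homeobox that encodes the DNA-contacting recognition helix is shown for 4 of the genes whose *aadd* values stood above all WT values, because it shows how near these genes are to each other in the sequence that defines them. Each window has 51 bases of the coding strand, from GENCODE M21 transcripts, and capitals mark the bases that differ from *Hoxc8*.
Hoxc8: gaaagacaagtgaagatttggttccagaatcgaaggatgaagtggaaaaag
Hoxc6: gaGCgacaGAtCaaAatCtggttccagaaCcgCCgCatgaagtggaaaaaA
Hoxc4: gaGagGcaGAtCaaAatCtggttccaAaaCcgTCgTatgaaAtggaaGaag
Hoxc10: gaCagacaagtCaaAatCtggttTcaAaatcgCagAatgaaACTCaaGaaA
Within this window *Hoxc6* differed from *Hoxc8* at 12 bases, and *Hoxc4* and *Hoxc10* at 14 each. Over the whole homeobox of 180 bases, identity was 62.8 to 77.8% in the 6 pairs among *Hoxc4*, *Hoxc5*, *Hoxc6* and *Hoxc8*. It was 56.1 to 71.7% in the 10 pairs among *Hoxc9* to *Hoxc13* and 48.3 to 66.7% in the 20 pairs between these sets. The longest run that a member's transcripts shared with another Hox gene was 50 bases for *Hoxc9* (with *Hoxb9*) and 18 to 28 bases for 6 other members. The exceptions were *Hoxc5* and *Hoxc10*, with 168 bases. An annotated *Hoxc5* transcript begins with an exon at chr15:102967443-102967608, inside the first exon of *Hoxc10*, so a read from that exon cannot be given to one gene alone. The deposited *Hoxc5* row spans chr15:103014008-103017429 and leaves this exon out. The *Hoxc10* row, at chr15:102966796-102971897, includes it.

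Values are NRPKM, the authors' RPKM after a further normalization between libraries, which makes genes of different length comparable. The depth was estimated from the length-scaled value most often taken by genes of the *Olfr*, *Vmn1r*, *Tas2r* and *Krtap* families. It came to 1890000 to 3240000 reads per library (2200000 to 2860000 in *aadd*), so that 1 read on 1 kb of transcript was worth 0.309 to 0.53 NRPKM. Because the values were scaled between libraries in a way not known, this is an effective depth and not a count of reads. The tissue label held: the 10 chondrocyte genes on the list (among them *Col2a1*, *Acan* and *Sox9*) summed to 2364 to 2791 NRPKM in *aadd* and 2543 to 3559 in WT resting. WT hypertrophic replicate 1 stood apart from its group, with a chondrocyte sum of 2775 against 618 and 890 and a hypertrophic sum of 1794 against 3522 and 3830. The hypertrophic genes were split within this group. *Col10a1*, *Ihh*, *Panx3*, *Mef2c* and *Runx2* were highest in replicate 1. *Mmp13* (3.05 against 735 and 661), *Spp1* (24.1 against 1083 and 979), *Ibsp*, *Alpl* and *Vegfa* were lowest in it. WT resting replicate 2 had an epidermal sum (10 genes, keratins first) of 185 NRPKM against 8.7 and 23.4 in the other resting libraries. The differences from these groups are given below with and without them.

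The main observation was a rise of 4 neighbouring genes at the *Hoxc4* to *Hoxc8* end of the cluster in *aadd*. *Hoxc8* ranged from 10.4 to 12.6 NRPKM in *aadd* and from 1.28 to 4.02 in the 9 WT libraries, and *Hoxc6* ranged from 11.7 to 15.7 and from 0.539 to 3.8. *Hoxc4* and *Hoxc5* rose as well, to lower levels. Of the genes numbered 9 and above, *Hoxc10* rose to a level near 1 NRPKM, and *Hoxc9*, *Hoxc11*, *Hoxc12* and *Hoxc13* stayed below 1.5 NRPKM in every library.

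**Figure D1:**
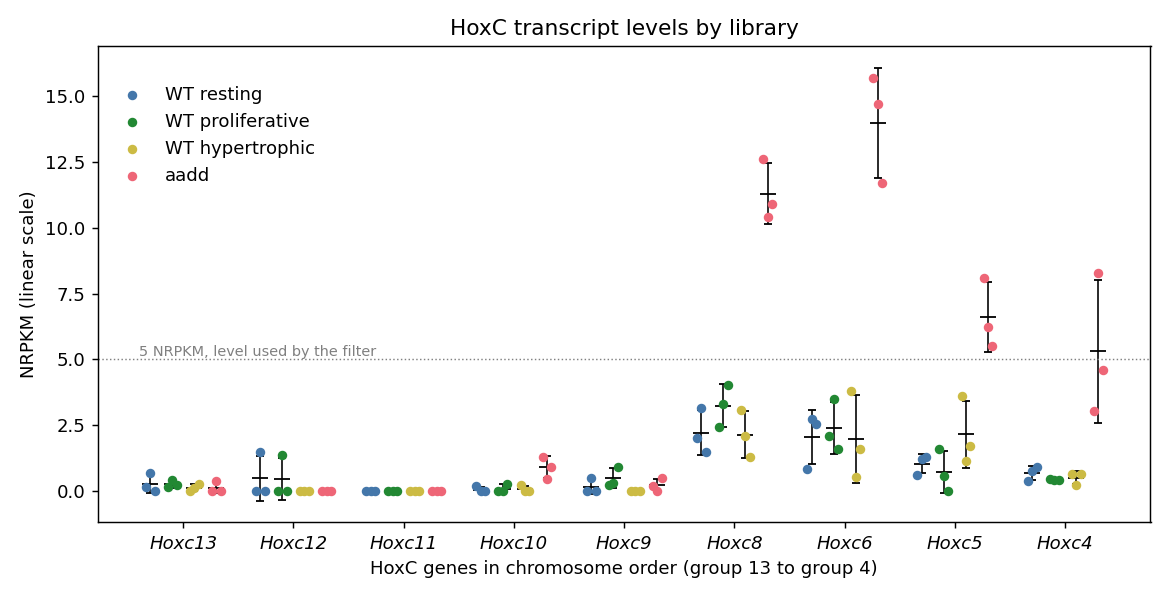
NRPKM (linear axis) of the 9 HoxC genes in chromosome order. Points are single libraries coloured by group, black bars are the mean and SD of 3 libraries, and the dotted line marks 5 NRPKM. The *aadd* points of *Hoxc8* (10.4 to 12.6) and *Hoxc6* (11.7 to 15.7) lie above every WT point, and the genes from *Hoxc13* to *Hoxc9* lie close to 0.

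*Hoxc8*, which sets the identity of thoracic vertebrae and of motor neurons that supply the forelimb, had 2, 3.16 and 1.49 NRPKM in the 3 WT resting libraries. It had 2.42, 3.31 and 4.02 NRPKM in WT proliferative and 3.07, 2.09 and 1.28 in WT hypertrophic. In *aadd* it had 12.6, 10.4 and 10.9 NRPKM. The 3 WT groups overlapped, and every *aadd* library was above all 9 WT libraries, which held for 2.82% of the 10936 rows that passed the filter on low values and for 1.91% of all 23070 rows above 0. Means were 11.3 ± 1.15 in *aadd*, 3.25 ± 0.804 in WT proliferative, 2.22 ± 0.86 in WT resting and 2.14 ± 0.9 in WT hypertrophic (SD, *n* = 3), and the proliferative and resting means differed by little more than their SDs, the resting and hypertrophic means by less. In reads, *Hoxc8* had an estimated 211 in the 3 *aadd* libraries and 41 to 48 in each WT group. These rest on a transcript length of 2.37 kb (2832 annotated bases), searched for as the one giving most whole reads. At that length the values came within 0.06 of a whole read in all 12 libraries, which is no separate check.

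*Hoxc6*, which takes part in patterning the thoracic skeleton and the motor neurons of the limb level, had 0.853, 2.73 and 2.55 NRPKM in WT resting. The WT proliferative libraries had 2.08, 3.48 and 1.6 NRPKM and the WT hypertrophic libraries 3.8, 0.539 and 1.58. The *aadd* libraries had 15.7, 14.7 and 11.7 NRPKM. Again the *aadd* libraries were all above the WT libraries, whose 3 groups overlapped widely. The means were 14 ± 2.09 in *aadd*, 2.39 ± 0.977 in WT proliferative, 2.04 ± 1.03 in WT resting and 1.97 ± 1.67 in WT hypertrophic, and the 3 WT means lay within 1 SD of each other. By NRPKM *Hoxc6* was thus the highest HoxC gene in *aadd*, with 34.2 to 38.3% of the HoxC sum, ahead of *Hoxc8* with 25.7 to 32%. This order depends on the transcript lengths behind NRPKM. In estimated reads *Hoxc6* had 180 in *aadd* and *Hoxc8* 211, at searched lengths of 1.65 and 2.37 kb. In WT the order of these genes varied, with *Hoxc8* at 23.2 to 53.9% and *Hoxc6* at 13.1 to 40.8%.

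*Hoxc5*, a gene of the cervical and upper thoracic level, had 0.62, 1.22 and 1.29 NRPKM in WT resting. In WT proliferative it had 1.58, 0.574 and 0 NRPKM, and in WT hypertrophic 3.61, 1.13 and 1.72. The *aadd* values were 8.09, 6.24 and 5.5 NRPKM. All of them were above the WT values, the nearest of which was WT hypertrophic replicate 1, the library that stood apart. *Hoxc5* means were 6.61 ± 1.34 in *aadd*, 2.15 ± 1.29 in WT hypertrophic, 1.04 ± 0.368 in WT resting and 0.719 ± 0.802 in WT proliferative, and neighbouring WT means differed by less than the larger of their SDs.

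*Hoxc4*, at the end of the cluster and a gene of the cervical level, had 0.396, 0.773 and 0.915 NRPKM in WT resting. It had 0.447, 0.407 and 0.413 NRPKM in WT proliferative and 0.647, 0.241 and 0.654 in WT hypertrophic. In *aadd* it had 3.03, 8.3 and 4.59 NRPKM. The 3 *aadd* libraries differed among themselves more than those of *Hoxc5*, *Hoxc6* or *Hoxc8*, relative to their mean, and all were above the WT libraries. The *Hoxc4* means were 5.31 ± 2.71 in *aadd*, 0.694 ± 0.268 in WT resting, 0.514 ± 0.237 in WT hypertrophic and 0.422 ± 0.0212 in WT proliferative. The neighbouring WT means did not differ beyond the larger SD. About 103 reads stood behind the *aadd* values and 7 to 14 behind each WT group.

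*Hoxc10*, known from the hindlimb and the lumbar level, had 1.31, 0.475 and 0.913 NRPKM in *aadd*. In WT it had 0.177 NRPKM in resting replicate 1, 0.277 in proliferative replicate 3 and 0.224 in hypertrophic replicate 1, and was at 0 in the other 6 libraries. The groups did not overlap, but the numbers of reads were small, with 14 reads in *aadd* (7, 2 and 5) against 3 in all 9 WT libraries. Scaled for depth, the ratio of these reads was 13.6, with an exact 95% counting interval of 3.8 to 73.9. Against WT resting alone, with 1 read, it was 14.1 (2.15 to 597). The exon that an annotated *Hoxc5* transcript shares with *Hoxc10* lies within the *Hoxc10* row. Whether all of these reads come from *Hoxc10* transcripts therefore cannot be told.

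The remaining members were at the limit of detection. *Hoxc9*, a gene of the thoracic level that separates trunk from limb motor neurons, had 0.209, 0 and 0.48 NRPKM in *aadd*, 0.222, 0.304 and 0.924 in WT proliferative and 0.485 in 1 WT resting library, and was at 0 in the other 5 libraries. That is 3 reads in *aadd* and 7 in WT, a ratio of 1.25 (0.209 to 5.48) after scaling. *Hoxc13*, required for hair and nail formation, had 2 reads in *aadd* and 12 in WT, with at most 0.685 NRPKM, a ratio of 0.486 (0.0528 to 2.18). Neither ratio could be told from 1 at this depth.

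*Hoxc12* was above 0 in 2 libraries alone, WT resting replicate 2 with 1.48 NRPKM and 4 reads, and WT proliferative replicate 2 with 1.36 NRPKM and 3 reads. *Hoxc13*, its neighbour, also had its highest value, 0.685 NRPKM, in WT resting replicate 2, and its next highest, 0.43, in WT proliferative replicate 2. The epidermal sum was highest in the same libraries of these groups, at 185 NRPKM in resting replicate 2 and 26.5 in proliferative replicate 2, against 4.32 to 23.4 in the other 4 libraries of the 2 groups. The part of epidermal cells in the *Hoxc12* and *Hoxc13* values was not tested. *Hoxc11*, known from the hindlimb, was at 0 in all 12 libraries. A count of 0 allows up to 3 reads, which for its 2.02 kb of exon is 0.459 to 0.787 NRPKM per library.

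The comparison of *aadd* with WT resting sets the whole captured *aadd* population against a single WT compartment. The mutations and the difference in captured cells cannot be told apart in it. The study's criteria of *P* up to 0.05 and a fold change (FC) of at least 1.5 were applied with limma on log2(NRPKM + 0.1). Of the 10936 rows tested, 6.56% were called and 3.78% were called higher in *aadd*. *Hoxc5*, *Hoxc6* and *Hoxc8* were the 3 members that reached 5 NRPKM in at least 3 libraries. They did so only through their *aadd* libraries, so that calling all 3 of them higher is fixed in part by the filter. In the fit to all rows above 0, where 8 members could enter, 5 were called higher, namely *Hoxc4*, *Hoxc5*, *Hoxc6*, *Hoxc8* and *Hoxc10*, and none lower, against 3.78% of 22335 rows called higher. The 9th member, *Hoxc11*, had no value to test.

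The log2 FC of *Hoxc6* was 2.86 (SE 0.42, 95% interval 1.86 to 3.86, limma adjusted *P* = 0.096). *Hoxc5* had a log2 FC of 2.59 (SE 0.30, interval 1.89 to 3.30, limma adjusted *P* = 0.0489), the one member under 0.05 after adjustment over the 10936 filtered rows, as were 0.0823% of them in this direction. In the fit to all rows above 0 its adjusted *P* in limma was 0.128, and no member was under 0.05. *Hoxc8* had 2.36 (SE 0.28, interval 1.70 to 3.01, limma adjusted *P* = 0.0501). Over the alternatives of processing the adjusted *P* ranged from 0.0239 to 0.481 for *Hoxc5*, 0.0332 to 0.304 for *Hoxc6* and 0.0239 to 0.235 for *Hoxc8*, with the unadjusted call kept in all of them. In the fit to all rows, *Hoxc4* had a log2 FC of 2.71 (SE 0.47, interval 1.54 to 3.88, limma adjusted *P* = 0.251). *Hoxc10* had 2.74 (SE 0.55, interval 1.38 to 4.10, limma adjusted *P* = 0.355), a value that depends on the pseudocount and fell to 0.82 with a pseudocount of 1. *Hoxc9* at 0.54 (limma adjusted *P* = 0.922), *Hoxc13* at -0.66 (limma adjusted *P* = 0.895) and *Hoxc12* at -1.33 (limma adjusted *P* = 0.816) did not pass.

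The rise did not rest on the resting library with epidermal genes. Without WT resting replicate 2 the log2 FC was 2.64 for *Hoxc8*, 3.14 for *Hoxc6*, 2.73 for *Hoxc5*, 2.81 for *Hoxc4* and 2.49 for *Hoxc10*, and all 5 kept their call. The median log2 FC over all rows tested was 0.01, and rescaling by the median of ratios or quantile normalization changed none of the 5 calls. In bulk tissue, a larger share of cells that express a gene and more RNA per cell cannot be told apart.

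Against the other WT compartments the same 5 genes were higher in *aadd*. These comparisons share the *aadd* libraries with the one above and are not separate evidence. Against WT proliferative, 15.8% of the rows were called in either direction and 9.82% were called higher, and the log2 FC was 2.56 for *Hoxc6* (SE 0.30, limma adjusted *P* = 0.0107), 1.79 for *Hoxc8* (SE 0.23, limma adjusted *P* = 0.0139) and 3.77 for *Hoxc5* (SE 0.94, limma adjusted *P* = 0.0871). The wide error of *Hoxc5* went with the proliferative library at 0: without that library, replicate 3, its log2 FC was 2.64, without replicate 1 it was 4.67, and with a pseudocount of 1 it was 2.24. In the fit to all rows, with 6.26% called higher, *Hoxc4* had 3.25 (SE 0.40, limma adjusted *P* = 0.0547) and *Hoxc10* 2.59 (SE 0.65, limma adjusted *P* = 0.226). There the limma adjusted *P* was 0.0655 for *Hoxc6*, 0.0844 for *Hoxc8* and 0.258 for *Hoxc5*, which had passed the filter only through *aadd*.

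Against WT hypertrophic, 21.9% of the rows were called and 12.2% were called higher. *Hoxc6* had a log2 FC of 3.12 (SE 0.62, limma adjusted *P* = 0.0335), *Hoxc8* of 2.42 (SE 0.32, limma adjusted *P* = 0.00914) and *Hoxc5* of 1.71 (SE 0.41, limma adjusted *P* = 0.0599). Without WT hypertrophic replicate 1, the library that stood apart, these were 3.76, 2.71 and 2.15. Without replicate 2, *Hoxc6* had 2.45 and *Hoxc5* 1.35. *Hoxc4* had 3.11 (SE 0.51, limma adjusted *P* = 0.0565) and *Hoxc10* 2.66 (SE 0.61, limma adjusted *P* = 0.114) in the fit to all rows, where 8.03% were called higher, and 3.30 and 3.23 without replicate 1. In the fit to all rows, with every library kept, the limma adjusted *P* was 0.101 for *Hoxc6*, 0.0469 for *Hoxc8* and 0.16 for *Hoxc5*. When all 12 libraries shared one fit, *Hoxc5* missed the unadjusted threshold against WT hypertrophic at the same log2 FC (limma adjusted *P* = 0.2).

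**Figure D2:**
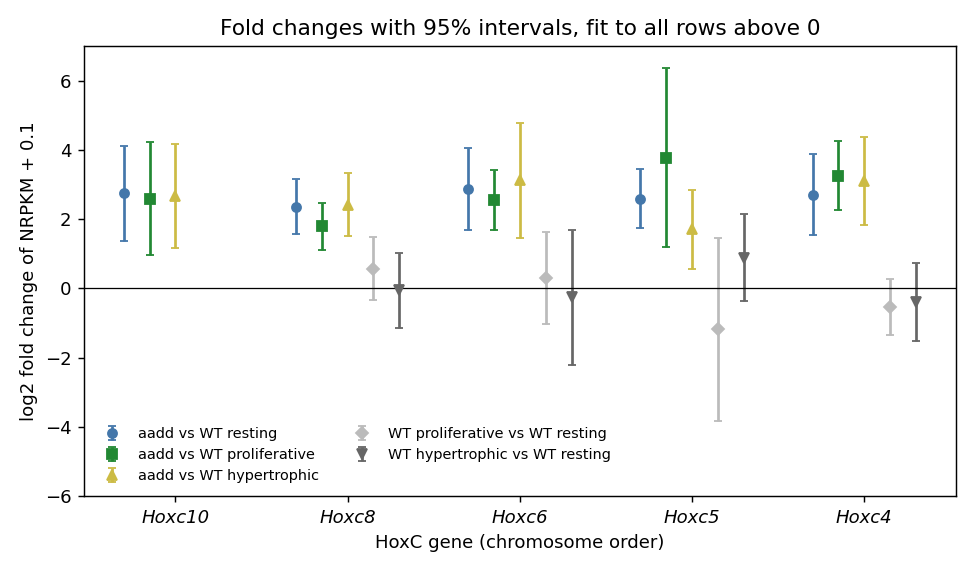
log2 FC of NRPKM + 0.1 with 95% intervals from limma fitted to all rows above 0, for the 5 genes that were higher in *aadd*. Coloured symbols are *aadd* against each WT compartment and grey symbols are differences between WT compartments (not drawn for *Hoxc10*, with at most 1 read per WT group). The coloured values lie between 1.71 and 3.77 with intervals above 0, and the grey intervals all include 0.

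Among the WT compartments, which trace chondrocytes from rest through division to hypertrophy, no HoxC gene that passed the filter was called with *P* up to 0.05 and an FC of at least 2. In the same comparisons 5.53% of the rows were called between proliferative and resting, 9.67% between hypertrophic and proliferative and 13% between hypertrophic and resting. From resting to hypertrophic the log2 FC was -0.06 for *Hoxc8*, with a 95% interval of -1.02 to 0.89, and -0.26 for *Hoxc6* (-2.04 to 1.52). *Hoxc5* had 0.88 (-0.24 to 2.01) and *Hoxc4*, in the fit to all rows, -0.40 (-1.53 to 0.74). From resting to proliferative *Hoxc8* had 0.57 (-0.20 to 1.33), *Hoxc6* 0.30 (-0.87 to 1.47), *Hoxc5* -1.18 (-3.52 to 1.16) and *Hoxc4* -0.54 (-1.35 to 0.27). Without WT hypertrophic replicate 1 the differences from resting to hypertrophic were -0.35 for *Hoxc8*, -0.89 for *Hoxc6*, 0.45 for *Hoxc5* and -0.58 for *Hoxc4*, and without WT resting replicate 2 they were 0.22, 0.02, 1.02 and -0.30. From resting to proliferative they were 0.85, 0.58, -1.05 and -0.44 without that resting library. These intervals leave room for changes of more than 2-fold in most cases, so a difference between WT compartments was not detectable rather than absent. *Hoxc5* was called in single WT comparisons when 1 library was left out, as lower in proliferative than in resting without proliferative replicate 1 (-2.08, limma adjusted *P* = 0.265) and as higher in hypertrophic than in resting without hypertrophic replicate 2 (1.24, limma adjusted *P* = 0.219). Between hypertrophic and proliferative it had 2.06 (limma adjusted *P* = 0.32) and was not called, and 2.96 (limma adjusted *P* = 0.245) and was called without proliferative replicate 1, and it had 1.63 without hypertrophic replicate 1. Without the filter, *Hoxc9* was called lower in hypertrophic than in proliferative, as were 4.45% of all rows, which rests on 0 reads against 5.

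In limma's F test over the 4 groups, where 13.8% of the filtered rows had an adjusted *P* under 0.05, *Hoxc8* had an adjusted *P* of 0.00349, *Hoxc6* of 0.0183 and *Hoxc5* of 0.0465. In the fit to all rows, with 3.93% under 0.05, *Hoxc4* had 0.0096, *Hoxc8* 0.0165, *Hoxc6* 0.0564, *Hoxc10* 0.0991 and *Hoxc5* 0.116. *Hoxc8* alone kept an adjusted *P* under 0.05 in the filtered test when any one *aadd* library was left out, or WT hypertrophic replicate 3. *Hoxc5* also lost it with the replicate number as a block, with a variance trend, and without any one WT resting library, proliferative replicate 2 or hypertrophic replicate 2.

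The noncoding genes of the cluster were at or near 0. *Hotair*, which lies between *Hoxc11* and *Hoxc12* and is transcribed from the opposite strand, had 0.169, 0.19 and 0.579 NRPKM in 3 WT libraries and was at 0 in the other 9, the 3 *aadd* libraries included. *Mir196a-2*, between *Hoxc10* and *Hoxc9*, and *Mir615*, inside *Hoxc5*, were at 0 in all 12 libraries, which says nothing of the mature microRNAs, because these are too short for such libraries. MicroRNAs of the miR-196 family are known to act on Hox transcripts, and the sequence is shown because 1 of the risen genes carries its site. The RefSeq entry for the mature form on build GRCm38.p6, at chr15:102973365-102973386, has the seed (bases 2 to 8) in capitals, and the second line is the first site in the *Hoxc8* 3′ UTR, starting at base 135, with the letters complementary to the seed in capitals.
miR-196a-5p: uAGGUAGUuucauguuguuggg
Hoxc8 site: acactcacaactctaACTACCTg
The letters ACTACCT, searched on the transcript strand, occurred at 2 places in the *Hoxc8* 3′ UTR of 966 bases and in the 3′ UTR of no other member. Of 10405 genes with a 3′ UTR at least as long, 3.77% had them in its first 966 bases. No further use was made of this match.

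Summed over the 9 members, HoxC transcripts came to 40.9, 40.4 and 34.1 NRPKM in *aadd*. The sums were 4.19, 10.5 and 6.24 NRPKM in WT resting, 6.91, 9.87 and 7.46 in WT proliferative, and 11.3, 4.12 and 5.51 in WT hypertrophic. As a share of all Hox transcripts HoxC held 9.39 to 12.1% in *aadd* and 2.63 to 5.1% in WT resting, and the ranges in WT proliferative (6.92 to 9.16%) and WT hypertrophic (6.67 to 13.1%) were in between or overlapped with *aadd*. The HoxC sum had means of 6.99, 8.08 and 6.99 NRPKM in resting, proliferative and hypertrophic. The hypertrophic mean depends on replicate 1, the library that stood apart. Without it 4.12 and 5.51 remain, below every proliferative library and overlapping with resting. A trend of HoxC over the WT compartments was thus not detectable rather than absent. In the same order the HoxA sum had means of 125, 78.4 and 39.6 NRPKM and the HoxD sum of 37.1, 16.4 and 12.9. Of the 8 HoxA genes tested, 8 were called lower in hypertrophic than in resting, where 13% of the 10936 rows were called in either direction. In the same comparison 8 of the 10 chondrocyte genes were called lower, so lower values in hypertrophic were not particular to HoxA.

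**Figure D3:**
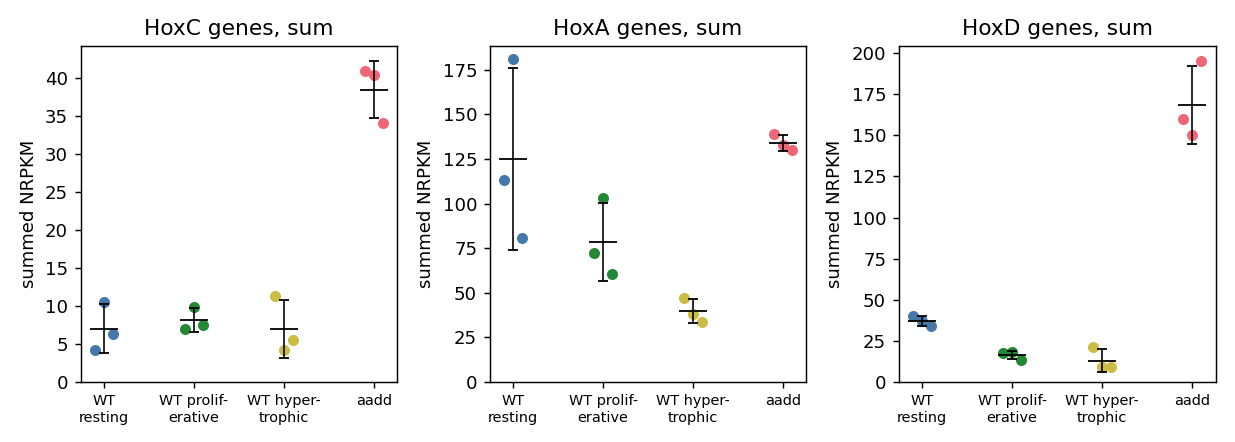
Summed NRPKM (linear axes from 0, a separate scale for each panel) of the HoxC, HoxA and HoxD genes in each library, with the mean and SD of 3 libraries per group. The HoxC sums lie at 34.1 to 40.9 in *aadd* and at 4.12 to 11.3 in WT, where the ranges of the compartments overlap.

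The other Hox clusters placed the HoxC values beside their paralogs. Between *aadd* and WT resting, all 5 HoxD genes tested were called higher, against 3.78% of the 10936 rows. The log2 FC was 2.25 for *Hoxd8* (SE 0.35), 1.87 for *Hoxd9* (SE 0.22), 1.59 for *Hoxd10* (SE 0.28), 2.37 for *Hoxd11* (SE 0.24) and 5.49 for *Hoxd13* (SE 0.26). *Hoxd13*, at most 1.7 NRPKM in WT, passed the filter only through its *aadd* libraries. *Hoxd11*, and *Hoxa2* of HoxA, also needed their *aadd* libraries to pass, so these counts are fixed in part by the filter. *Hoxd8*, the HoxD paralog of *Hoxc8*, had 33.8, 26.1 and 34.4 NRPKM in *aadd* against 3.75, 9.75 and 7.39 in WT resting. Of the 8 HoxA genes tested, *Hoxa2* (log2 FC 1.02) and *Hoxa5* (0.64) were called higher and *Hoxa11* lower (-1.25), and the median over the 8 was 0.10. *Hoxa5*, the paralog of *Hoxc5*, had 28, 28.2 and 28.3 NRPKM in *aadd* against 14.7, 26.4 and 15 in WT resting. None of the 10 HoxB genes reached the filter level, and their sums were 3.54 to 10.4 NRPKM in *aadd* and 1.35 in each WT resting library. In the fit to all rows, which gave the calls of *Hoxc4* and *Hoxc10*, 3.78% of 22335 rows were called higher. Among Hox genes these were 8 of 9 in HoxD, 5 of 8 in HoxC, 5 of 10 in HoxB and 3 of 11 in HoxA, with *Hoxa11* called lower. The further genes were *Hoxd3* (log2 FC 3.28), *Hoxd4* (1.96), *Hoxd12* (4.22), *Hoxa7* (1.70) and *Hoxa13* (4.27), and of HoxB *Hoxb2* (3.14), *Hoxb3* (1.25), *Hoxb5* (1.75), *Hoxb6* (3.35, limma adjusted *P* = 0.0431) and *Hoxb7* (2.73). *Hoxb2*, *Hoxb6* and *Hoxb7* were at 0 in all 3 WT resting libraries, so that their fitted values depend on the pseudocount, and *Hoxb6* had 0.848, 1.14 and 0.793 NRPKM in *aadd*. *Hoxa5* missed the threshold in this fit. *Hoxd13* had 17.6 to 31.2 NRPKM in *aadd* and *Hoxc13* at most 0.374.

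**Figure D4:**
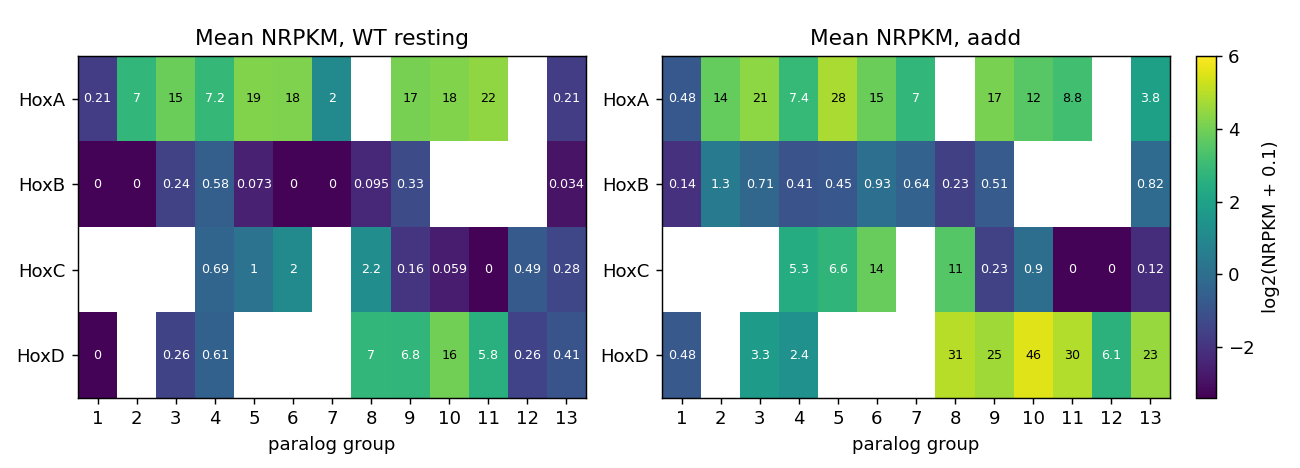
Mean NRPKM of 3 libraries for each Hox gene, by cluster (rows) and paralog group (columns), in WT resting (left) and *aadd* (right). Colour is log2(NRPKM + 0.1), numbers in the cells are NRPKM to 2 digits, and white cells are genes that do not exist. HoxC is higher in *aadd* at groups 4, 5, 6 and 8 and, at a low level, at group 10, and HoxD at groups 3 to 13.

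Hox proteins bind DNA with cofactors of the Pbx, Meis and Pknox families. Of 9 cofactor genes, 5 passed the filter and 1 was called between *aadd* and WT resting, *Pknox2*, which was higher (log2 FC 1.45, SE 0.16, limma adjusted *P* = 0.0408). It had 13.1 to 16.1 NRPKM in *aadd* and 5.2 to 5.56 in WT resting. Genes of limb identity gave a check on the limb. *Tbx5*, the forelimb factor, had 90.9 to 104 NRPKM in *aadd* and 70.1 to 74.9 in WT resting and was not called, nor was *Tbx4*, which marks the hindlimb and was at most 12 NRPKM in any library. *Pitx1*, the other hindlimb factor, had 1.32, 0.557 and 0.856 NRPKM in *aadd* and 0.138, 0.51 and 0.16 in WT resting. It was below the filter and was called higher in the fit to all rows (log2 FC 1.52, limma adjusted *P* = 0.7).

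Markers of other cell types were compared because HoxC genes are used outside cartilage. None of the 10 chondrocyte genes was called between *aadd* and WT resting, where 6.56% of the filtered rows were called. Of the 10 perichondrial and connective tissue genes, *Pdgfra* and *Twist1* were called higher, and the sums overlapped, at 557 to 1190 NRPKM in *aadd* and 565 to 921 in WT resting. The tendon sums were 459 to 766 and 305 to 647, with *Mkx* called higher of 8 tested. The skeletal muscle sums did not overlap, at 15.9 to 48.7 NRPKM in *aadd* and 5.14 to 13.9 in WT resting, and *Actc1*, the 1 muscle gene that passed the filter, was called higher (log2 FC 2.97). *Actc1* gave 22.7, 25.5 and 10.3 NRPKM of the *aadd* muscle sums of 34.5, 48.7 and 15.9. Without the filter 3 of 10 muscle genes were called higher, against 3.78% of 22335 rows. They were *Actc1*, *Myl1* (2.54) and *Myh3* (1.51), with *Myl1* at 2.3, 4.1 and 0.837 NRPKM in *aadd*. The muscle regulators *Myog* and *Myod1* were at most 1.21 NRPKM in *aadd*, and the mean of *Des* was lower in *aadd* (1.67) than in WT resting (3.2). The muscle sum was also up to 96 NRPKM in WT proliferative, in replicate 3. There *Hoxc8* had 4.02 NRPKM, its highest WT value, *Hoxc6* had 1.6 and *Hoxc5* 0. No endothelial gene of 3 tested was called, and the endothelial sums were 18.3 to 59.9 in *aadd* and 15.2 to 33.2 in WT resting, and 324 and 227 in WT hypertrophic replicates 2 and 3, where *Hoxc8* had 2.09 and 1.28. The erythroid sums were 91.3 to 216 and 63.6 to 85.9, with 1 of 4 tested genes, *Hbb-y*, called higher. Of the 10 hypertrophic genes tested *Panx3* and *Vegfa* were called lower in *aadd*. Epidermal sums did not overlap either, at 5.42 to 6.81 in *aadd* and 8.7 to 185 in WT resting, with *Krt10* called lower of 2 tested. In the fit to all rows 2 of 10 epidermal genes were called lower. The part of muscle, erythroid, perichondrial or other cells in the HoxC difference was not tested.

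The profiles most like those of the 3 most abundant members were found by the root mean square difference of centred log2 values over the 12 libraries, among all rows tested. For *Hoxc8* the nearest was *Mira* at 0.388, a noncoding RNA from the HoxA cluster on chromosome 6, followed by *Fbln5*, an elastic fibre protein, at 0.524, the T-box factor *Tbx18* at 0.581, *Hoxa2* at 0.586 and the Wnt receptor *Fzd6* at 0.62, where the median of all rows was 1.11. *Mira* had means of 24.7 NRPKM in *aadd*, 6.23 in WT resting, 10.4 in WT proliferative and 6.98 in WT hypertrophic. For *Hoxc6* the order was *Hoxd8* at 0.627, *Fzd6* at 0.722, *Hoxc8* at 0.752, the adhesion protein *Alcam* at 0.764 and *Chrnb1*, a subunit of the muscle acetylcholine receptor, at 0.794 (median 1.48). *Hoxc5* had less close neighbours, *Hoxd8* at 0.911, *Nrn1* at 0.912, the microRNA gene *Mir669i* at 0.974, *Zscan30* at 1.03 and *Smim8* at 1.08 (median 1.69). Among the 4 risen neighbours in the cluster, *Hoxc4* and *Hoxc6* were the nearest pair at 0.624 and *Hoxc5* and *Hoxc8* the farthest at 1.46. *Hoxc4* did not pass the filter and so was not ranked above, but it was as near to *Hoxc6* as *Hoxd8* was.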

How the data were processed

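Expression was measured by RNA-Seq after LCM, RNA amplification (NuGen) and Nextera library preparation. Per the labels and the paper's methods, the authors aligned reads to mm10 (TopHat is named in the submitters' processing notes), removed duplicate and multiply aligned reads, and deposited RPKM normalized further between libraries (NRPKM). The scaling between libraries and the use of strand are not given in the sources used here. No columns of the authors' comparisons were used.

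The test was limma 3.58.1 (R 4.3.3) on log2(NRPKM + 0.1). Rows entered when 3 or more of the 12 libraries reached 5 NRPKM. A pair of groups was fitted on its own 6 libraries, and *P* values were adjusted over all rows by Benjamini-Hochberg. A call needed *P* up to 0.05 and an FC of at least 1.5 (*aadd*) or 2 (WT). Members below the filter come from a fit to all rows above 0. Reads were computed from NRPKM, the depth and the transcript length that gave whole numbers. This length was searched for, so the reads are estimates: it was 1.91 kb for *Hoxc10* (1909 annotated bases), but 1.71 kb for *Hoxc9* (2430), and for *Hoxc6* whole reads were met in 5 of 12 libraries. Intervals and limits from reads cover counting error only, since reads carried no molecular identifiers. Tables and plots used Python 3.11.15, numpy 2.4.6, pandas 2.3.3, scipy 1.17.1 and matplotlib 3.10.9. The fit was tested on simulated data.

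The genes named are the members, all rows between *Hoxc13* and *Hoxc4*, the Hox, cofactor, limb identity and marker lists, and the 5 nearest profiles to each of the 3 most abundant members. Members and lists were chosen with earlier results of these data known. *Hoxd8*, *Mira* and the other nearest profiles are descriptions.

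Same-numbered libraries deviated together between WT resting and WT proliferative (*r* = 0.281, 0.179 and 0.198 across rows), so they may be paired there. The fold changes and intervals given for these groups did not use this pairing. A replicate block was one of the alternative settings, and with it no HoxC gene that passed the filter was called between them. In the other pairs of groups at least 1 number had *r* under 0.1, although number 2 had *r* = 0.280 between *aadd* and WT resting. The *Hoxc5* homeobox window is not reported here.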

Additional observations from a re-analysis of the deposited data

How the results depend on the processing

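Settings tried were quantile normalization, median-of-ratios rescaling, a pseudocount of 1, a variance trend, a replicate block, one fit to all 12 libraries, a filter taken over the 6 libraries of a pair or no filter, and each library left out. Of 198 alternative log2 FC values for the 15 differences between *aadd* and WT, 197 kept direction and call, and 1 missed the threshold (*Hoxc5* against WT hypertrophic with all 12 libraries in one fit, 1.71). Without the filter 5 genes were called in place of 3 in each *aadd* comparison, because *Hoxc4* and *Hoxc10* then entered. The count against WT hypertrophic was 2 with all 12 libraries in one fit. Leaving out libraries gave 3 in each *aadd* comparison.

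Between WT hypertrophic and WT proliferative 1 gene was called without the filter (*Hoxc9*), with all 12 libraries in one fit (*Hoxc5*) and with the replicate block (*Hoxc5*, log2 FC 2.06, limma adjusted *P* = 0.31). The replicate block also lost *Hoxc5* from the test of 4 groups (2 genes in place of 3, as with the variance trend) and changed no other call. Leaving out single libraries gave 0 to 1 called genes in each WT comparison and 1 to 3 in the test of 4 groups. In 8 cases a WT difference, uncalled, changed sign with 1 library left out. From resting to proliferative *Hoxc6* ranged from -0.21 (without resting replicate 1) to 0.58. From proliferative to hypertrophic *Hoxc4* ranged from -0.05 (-0.04 and -0.05 without hypertrophic replicates 1 and 3) to 0.52, and *Hoxc6* from -1.20 to 0.11 (without hypertrophic replicate 2). From resting to hypertrophic *Hoxc6* ranged from -0.89 to 0.41 (0.02 without resting replicate 2, 0.41 without hypertrophic replicate 2), and *Hoxc8* from -0.35 to 0.25 (0.22 without resting replicate 2, 0.25 without hypertrophic replicate 3). The cause was not tested. Depth limits *Hoxc9* to *Hoxc13*, with 0 to 14 reads per group.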
